A study of Saccharomyces cerevisiae with 4 samples.

Results

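The genes described here encode the enzymes with which budding yeast disposes of superoxide and hydrogen peroxide by metal chemistry. They are the catalase genes CTT1 (YGR088W) and CTA1 (YDR256C), the superoxide dismutase genes SOD1 (YJR104C) and SOD2 (YHR008C), the copper chaperone gene CCS1 (YMR038C) and the cytochrome c peroxidase gene CCP1 (YKR066C). They were chosen by name for their function, with earlier results of these data known. A gene was taken from the probes annotated with that single symbol. All 6 had 1 probe each and a value on all 4 arrays, so they make up 6 of the 5477 genes with a probe of their own and 6 of the 5403 genes tested. Total RNA of Saccharomyces cerevisiae had been hybridised to 4 arrays with 2 colours each. On 2 celastrol arrays, cells given 10 µM celastrol in DMSO for 1 h (Cy5) were set against cells given the same volume of DMSO (Cy3). On 2 heat shock arrays, cells held at 39 °C for 30 min (Cy5) were set against cells held at 30 °C for 30 min (Cy3). The sources used here do not give the strain, its genotype, the medium or the growth phase. The series text calls the replicates separate experiments but not separate cultures, so p-values measure the spread between these arrays.

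Superoxide dismutases turn superoxide into hydrogen peroxide and oxygen. Sod1 carries copper and zinc and works in the cytosol and the mitochondrial intermembrane space, and Ccs1 delivers its copper, whereas Sod2 carries manganese and works in the mitochondrial matrix. Catalases split hydrogen peroxide without a reducing partner, catalase T (Ctt1) in the cytosol and catalase A (Cta1) in peroxisomes and mitochondria, and cytochrome c peroxidase reduces it between the mitochondrial membranes with electrons from cytochrome c. CTT1 is a well known target of the general stress factors Msn2 and Msn4, and CTA1 is known for its use during growth on fatty acids and for repression by glucose. Celastrol, a quinone methide triterpenoid of plant origin, reacts with thiols and is known as an inducer of the heat shock response.

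Every value below is the log2 ratio between treated and control cells of an array, so 1 unit stands for 2-fold. Base 2 could be read from heat shock replicate 1 only and is an assumption for the other 3 arrays. Folds after celastrol, on heat shock replicate 2 and of heat shock means share that assumption. The treated sample was in Cy5 on every array, and a dye effect of a probe cannot be told apart from the treatment. The arrays had medians near 0, from −0.14 to 0.037 over the genes tested, and SDs of 0.588 and 0.789 after celastrol and 0.913 and 0.590 after heat shock. Heat shock replicate 1 thus had the widest spread of values. Ratios of treated over control say nothing of how abundant a transcript was, and no levels are compared between genes.

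The copper-zinc enzyme gene SOD1 and its copper chaperone gene CCS1 stood above 0 on both celastrol arrays. CTT1 and CCP1 stood above 0 on both heat shock arrays. CTA1 lay below 0 on all 4 arrays, and SOD2 lay below 0 after celastrol and above 0 after heat shock. Against the spread between arrays, 1 of these responses passed the test, the rise of CTT1 after heat shock. "Called" refers to a limma p-value below 0.05 after Benjamini-Hochberg adjustment over the 5403 genes. Without adjustment that rise of CTT1 had a limma p of 0.0041, and CCS1 after celastrol, not called, had 0.0039. After celastrol limma called 0 of the 6 genes, beside 6.53% of all genes called, 3.85% higher and 2.68% lower. Before adjustment, 2 of the 6 had a p under 0.05, beside 30.8% of all genes. After heat shock it called 1 of the 6, beside 9.07% of all genes called, 4.28% higher and 4.79% lower. Here 3 of the 6 had an unadjusted p under 0.05, beside 30.4% of all genes. Their median log2 ratio was −0.055 after celastrol, against −0.11 over all genes, and 0.085 after heat shock, against 0.0048 over all genes.

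**Figure D1:**
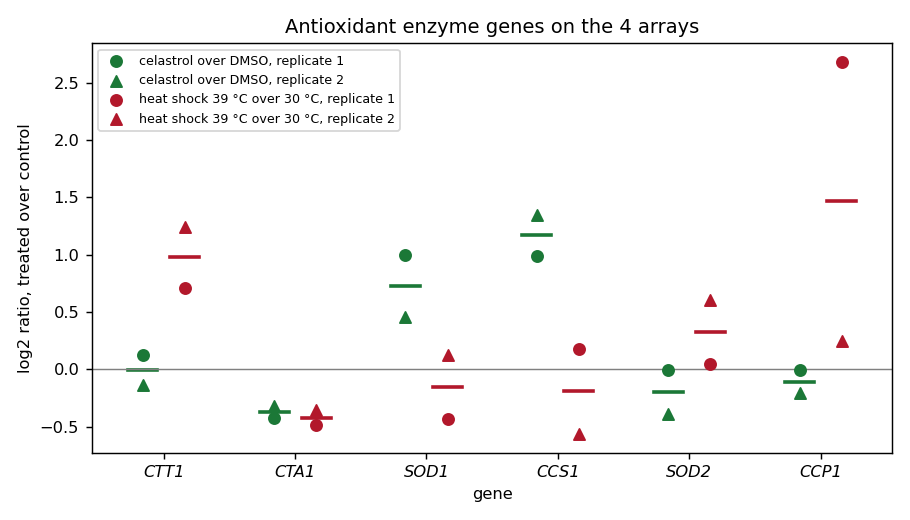
Log2 ratios of treated over control (vertical axis) for the 6 genes (horizontal axis), with celastrol in green at the left and heat shock in red at the right of each gene. Circles are replicate 1, triangles replicate 2 and bars the mean of 2 arrays. CCS1 and SOD1 lie above 0 on both celastrol arrays, and CCP1 is at 2.68 on heat shock replicate 1 but at 0.25 on replicate 2.

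The catalase genes are taken first. CTT1, for catalase T, had log2 ratios of 0.13 and −0.13 on the celastrol arrays and of 0.71 and 1.25 on the heat shock arrays. The heat shock arrays were both higher than the celastrol arrays, and the celastrol arrays lay on either side of 0. The mean after celastrol was −0.0034 ± 0.19 (SD, n = 2), and the 95% limma interval spanned folds of 0.703 to 1.42. That mean was 0.14 when arrays were centred on their medians, which moves celastrol means by 0.145. After heat shock CTT1 rose to 0.98 ± 0.38 (SD, n = 2), a 1.97-fold change with an interval of 1.39- to 2.80-fold and a limma adjusted p of 0.0478. Over the 13 other settings of the fit the limma adjusted p of this rise ran between 0.0210 and 0.523, and the call held in 5 of them. It was lost without either celastrol array or with the heat shock arrays fitted alone, which is the same fit for a heat shock mean and called 0 genes by limma (1154 at an unadjusted p under 0.05; CTT1 at a limma adjusted p of 0.143). It was also lost without heat shock replicate 2, where CTT1 stood at 0.71 (limma adjusted p = 0.0567). Among the 5403 genes CTT1 ranked 1557th and 2697th from the top on the celastrol arrays, and 872nd and 140th on the heat shock arrays. Celastrol minus heat shock was −0.98 ± 0.28 (limma SE), with an interval of −1.70 to −0.27 before adjustment, and was not called (limma adjusted p = 0.239).

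CTA1, for catalase A, was the steadiest of the 6 genes. Its log2 ratios were −0.43 and −0.32 after celastrol, against −0.49 and −0.35 after heat shock. All 4 arrays lay below 0, and the treatments overlapped. The means were −0.37 ± 0.077 after celastrol and −0.42 ± 0.095 after heat shock (SD, n = 2 each), or 0.773 and 0.748 of the control level. Neither was called, with limma adjusted p-values of 0.178 and 0.145. The replicate arrays of CTA1 differed by 0.11 after celastrol and 0.13 after heat shock, less than the median gap over all genes of 0.23 and 0.34. Between treatments CTA1 differed by 0.047 ± 0.22 (limma SE), with an interval of −0.50 to 0.60, so a difference of up to about 1.51-fold remained within the error.

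SOD1 and its copper chaperone gene CCS1 had their highest ratios after celastrol. CCS1 had log2 ratios of 0.99 and 1.35 after celastrol, against 0.18 and −0.56 after heat shock. Both celastrol arrays were above both heat shock arrays, and the heat shock arrays lay on either side of 0. The celastrol mean of 1.17 ± 0.25 (SD, n = 2) was a 2.25-fold change with an unadjusted interval of 1.49- to 3.41-fold, and it narrowly missed the call (limma adjusted p = 0.0536). Of the 13 other settings, 7 called it, with limma adjusted p-values over all of them of 0.00273 to 0.682. For a celastrol mean, leaving out either heat shock array or fitting the celastrol arrays alone is the same fit, which accounts for 3 of the 7 calls and for the lowest p. CCS1 ranked 216th and 170th from the top of 5403 genes on the celastrol arrays, above 96.0% and 96.9% of the genes, but 2194th and 4700th on the heat shock arrays. The mean after heat shock was −0.19 ± 0.53 (SD, n = 2) and was not called (limma adjusted p = 0.616).

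SOD1 had log2 ratios of 0.997 and 0.46 after celastrol, against −0.43 and 0.12 after heat shock. The celastrol arrays were again both above the heat shock arrays, at ranks 214 and 774 from the top, against ranks 4069 and 1848 after heat shock. The celastrol mean was 0.73 ± 0.38 (SD, n = 2), or 1.66-fold with an unadjusted interval of 1.11- to 2.47-fold, and was not called (limma adjusted p = 0.106; called in 5 of the 13 other settings, 3 of them the same fit of the celastrol arrays alone, at 0.0242). The heat shock mean was −0.15 ± 0.39 (SD, n = 2), and it was not called either (limma adjusted p = 0.677). The gap between the celastrol arrays of SOD1, 0.54, was matched or exceeded by 16.3% of all genes.

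SOD2, for the manganese enzyme of the mitochondrial matrix, was at −0.00089 and −0.39 after celastrol and at 0.047 and 0.60 after heat shock. The celastrol arrays lay below the heat shock arrays, with 1 array of each treatment close to 0. The means were −0.20 ± 0.27 after celastrol and 0.32 ± 0.39 after heat shock (SD, n = 2 each), with limma adjusted p-values of 0.581 and 0.340. The 95% intervals ran from 0.602- to 1.27-fold after celastrol and from 0.863- to 1.82-fold after heat shock. SOD2 therefore had no call in either treatment, and an increase of up to 1.82-fold after heat shock lay within the error.

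Within an array, SOD1 and SOD2 can be set against each other without any effect of a shift of the whole array. The ratio of SOD1 exceeded that of SOD2 by 0.998 and 0.85 log2 units on the celastrol arrays, whereas on the heat shock arrays it lay below it, at −0.477 and −0.479. The difference SOD1 minus SOD2 averaged 0.92 ± 0.11 after celastrol and −0.48 ± 0.0012 after heat shock (SD, n = 2 each). CTT1 minus CTA1 was 0.55 and 0.18 after celastrol and 1.19 and 1.60 after heat shock. CTT1 was thus the higher catalase ratio on all 4 arrays. CCS1 minus SOD1 was −0.0054 and 0.89 after celastrol and 0.61 and −0.68 after heat shock, so the order of chaperone and enzyme genes differed between replicate arrays. These 3 pairs were picked with the values in view and were not tested; an exact two-sided permutation test of 2 against 2 arrays could not give a p below 0.333.

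**Figure D2:**
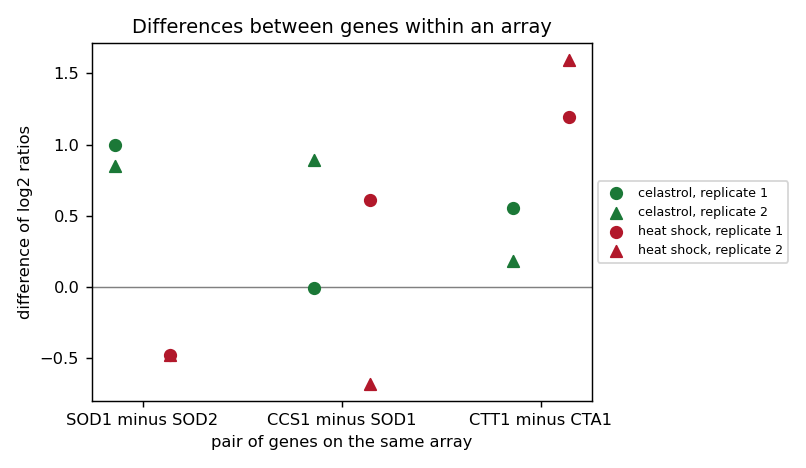
Difference between the log2 ratios of a pair of genes on the same array (vertical axis), for 3 pairs (horizontal axis), with celastrol in green at the left and heat shock in red at the right. Circles are replicate 1 and triangles replicate 2. SOD1 minus SOD2 is positive on both celastrol arrays and near −0.48 on both heat shock arrays, where the symbols coincide.

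CCP1, for the heme peroxidase of the mitochondrial intermembrane space, had the widest disagreement between replicates. It was at −0.0052 and −0.21 after celastrol and at 2.68 and 0.25 after heat shock. On heat shock replicate 1 it ranked 31st from the top of 5403 genes, a 6.41-fold ratio, but on replicate 2 it ranked 1274th at 1.19-fold. The gap of 2.43 log2 units between the heat shock arrays was reached by 38 of the 5403 genes (0.703%), of which 9 were higher on replicate 1 and 29 on replicate 2. The mean of 1.46 ± 1.72 (SD, n = 2) was not called (limma adjusted p = 0.157), and its interval ran from 1.03- to 7.41-fold. Without heat shock replicate 2 the value was 2.68 and was called (limma adjusted p = 0.000605), and without replicate 1 it was 0.25 (limma adjusted p = 0.606). After celastrol the mean was −0.11 ± 0.14 (SD, n = 2; limma adjusted p = 0.920), and 0.038 with arrays centred on their medians. Because the fit pools the spread of both treatments, the celastrol interval of CCP1, 0.345- to 2.50-fold, carries the disagreement of the heat shock arrays.

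**Figure D3:**
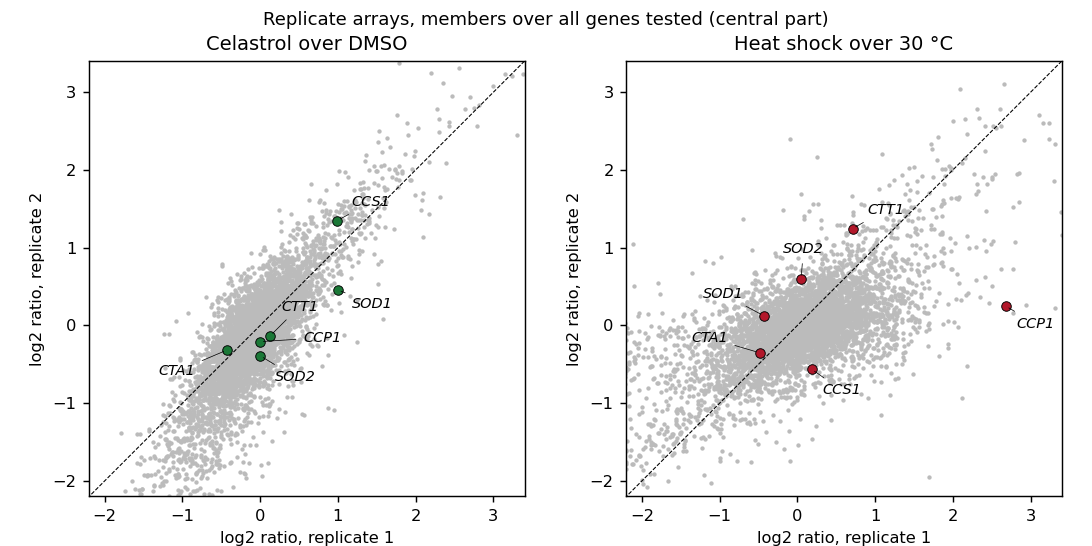
Log2 ratios on replicate 1 (horizontal axis) and replicate 2 (vertical axis) for all genes tested (grey) and the 6 genes (coloured), for celastrol at the left and heat shock at the right, in the central part of the range. The dashed line marks equal values. CCP1 lies far from the line after heat shock, at 2.68 and 0.25, and after celastrol the widest gap is that of SOD1, 0.54.

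Ordered by mean log2 ratio, the genes after celastrol ran CCS1, SOD1, CTT1, CCP1, SOD2 and CTA1. Of the 5 pairs of neighbours in that order, SOD1 and CTT1 were the 1 pair whose arrays did not overlap. After heat shock the order was CCP1, CTT1, SOD2, SOD1, CCS1 and CTA1, and here CTT1 and SOD2 were the 1 pair of 5 whose arrays did not overlap. CTA1 was last in both orders.

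In the direct comparison of the treatments limma called 0 of the 6 genes, beside 1.11% of all genes called (0.537% higher after celastrol and 0.574% lower). Before adjustment 3 of the 6 had a p under 0.05, beside 13.7% of all genes. Those 3 were CCS1, at 1.36 ± 0.33 (limma SE; limma adjusted p = 0.182), CTT1, at the difference given above, and SOD1, at 0.88 ± 0.32 (limma SE; limma adjusted p = 0.333). The smallest difference called among all genes was 1.65 log2 units, larger than any of these. CCP1, at −1.57 ± 0.79, and SOD2, at −0.52 ± 0.30 (both limma SE), had intervals that included 0. Without heat shock replicate 1 the difference of CCS1 was 1.73 and was called (limma adjusted p = 0.0235). Without heat shock replicate 2 that of CCP1 was −2.79 and was called (limma adjusted p = 0.00185). The arrays of the treatments did not overlap for 5 of the 6 genes, beside 47.0% of all genes. CCS1 and SOD1 were higher after celastrol, as were 18.1% of all genes by this count, and CTT1, SOD2 and CCP1 were lower, as were 28.9%.

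**Figure D4:**
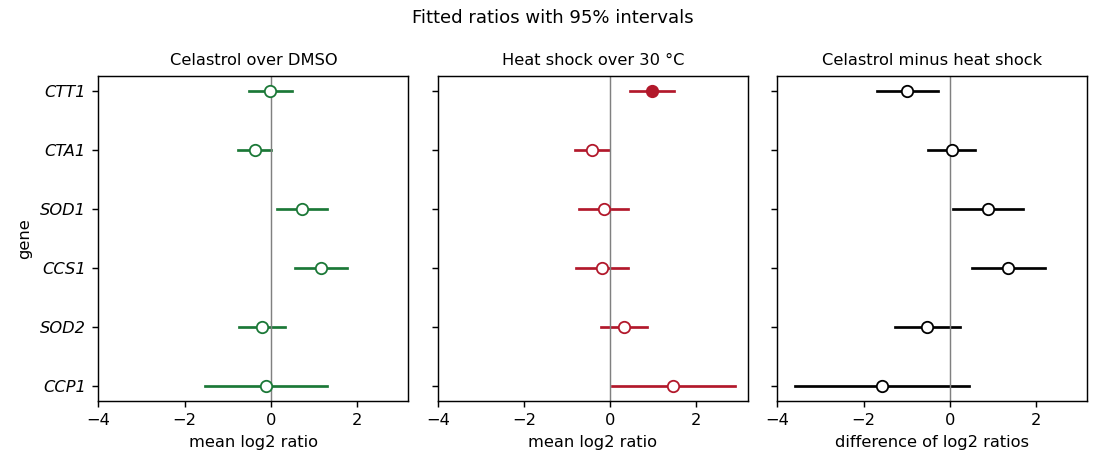
Fitted mean log2 ratios after celastrol (left) and heat shock (middle) and their difference (right) for the 6 genes, on the horizontal axes, with 95% limma intervals before adjustment. Filled symbols have a limma adjusted p under 0.05, which CTT1 after heat shock alone reached, at 0.98.

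For each gene the 3 nearest of the 5403 genes were found by the Euclidean distance between log2 ratios over the 4 arrays. CTT1 was nearest to YLR031W (distance 0.156), SIP4 (0.307) and YTP1 (0.357), where the median distance to all genes was 1.66. The ratios of YLR031W were −0.00022 and −0.14 after celastrol and 0.64 and 1.19 after heat shock. SOD1 was nearest to GSH2, for glutathione synthetase (0.295), ARL3 (0.397) and MIG3 (0.397), against a median of 1.61. CCS1 was nearest to TDA1 (0.384), YPR1 (0.417) and GSH1, for gamma-glutamylcysteine synthetase (0.499), against a median of 2.08. GSH2 had ratios of 0.89 and 0.67 after celastrol, against −0.55 and 0.25 after heat shock. Those of ARL3 were 0.64 and 0.54, against −0.47 and −0.024, and those of MIG3 0.75 and 0.48, against −0.38 and −0.19. TDA1 had ratios of 1.08 and 1.21 after celastrol, against 0.11 and −0.22 after heat shock. Those of YPR1 were 1.18 and 1.38, against 0.069 and −0.21. GSH1 had ratios of 1.44 and 1.48 after celastrol, against 0.056 and −0.45 after heat shock. CTA1 lay within 0.098 of PMT3, GPI13 and BNR1, and SOD2 within 0.219 of RGT1, GAL7 and OCA6. CCP1 was nearest to YFL068W (0.426), WTM2 (0.520) and the manganese transporter gene SMF1 (0.544), all of which had ratios above 2 on heat shock replicate 1 (2.77, 2.20 and 2.30) and below 1 on replicate 2 (0.16, 0.41 and 0.59). No member was among the 3 nearest genes of another, a narrow limit among 5403 genes. SOD2 was the 238th nearest gene of CTT1, and CTT1 the 1923rd of SOD2. SOD1 was the 265th nearest gene of CCS1, and CCS1 the 1274th of SOD1. The least distance between members was 0.967, for CTT1 and SOD2, and the next 1.17, for CTA1 and SOD2.

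The genes around these enzymes were followed in 7 lists that hold other peroxide-removing enzymes, metal and heme supply, regulators, the peroxisome and the partners of cytochrome c peroxidase. Their counts and medians stand beside the shares of genes called or at an unadjusted p under 0.05, and the medians, given above over all genes. The lists had 8, 12, 7, 8, 12, 15 and 8 genes tested. In the 7 lists 6 genes were called after celastrol and 7 after heat shock, beside 6.53% and 9.07% of all genes. The limma adjusted p-values of these calls were 0.0280 to 0.0465 and 0.0110 to 0.0424. Without either celastrol array limma called 0 of the 5403 genes in any comparison (343 to 1154 at an unadjusted p under 0.05), so each of these calls was lost, although the heat shock ratios themselves did not change. Of the 7 heat shock calls 2 were left without heat shock replicate 1. Other enzymes that remove peroxide, the peroxiredoxins and glutathione peroxidases, numbered 8. After celastrol limma called 0 of the 8, with 4 at an unadjusted p under 0.05 and a median of 0.44. AHP1, for a cytosolic peroxiredoxin, was highest at 1.17 ± 0.082 (SD, n = 2; limma adjusted p = 0.0550). After heat shock 2 of the 8 rose and 0 fell, with a median of 0.37. They were the peroxiredoxin gene TSA2 (2.41 ± 0.35) and the glutathione peroxidase gene GPX1 (1.83 ± 0.12; SD, n = 2 each). TSA2 was the 1 gene of the 7 lists with a called difference, and it was lower after celastrol, with a difference of −2.23 ± 0.26 (limma SE; limma adjusted p = 0.0391). The difference was −2.16 and −2.31 without either celastrol array, fits in which no gene was called by limma.

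Copper supply bears on Sod1 through Ccs1. Of 12 genes tested, 1 fell after celastrol and 0 rose, with a median of 0.053. ATX1, for the copper chaperone that serves the secretory pathway, was at −1.03 and −0.99 after celastrol, against −0.59 and −0.16 after heat shock. Its call was lost with arrays centred on all probes (−0.87; limma adjusted p = 0.0580) or on the genes tested (−0.89; 0.0598). CCS1, for the chaperone that serves Sod1, was above 0 on the same celastrol arrays. After heat shock 1 of the 12 rose and 0 fell, with a median of 0.39. It was CRS5, for a copper-binding metallothionein (0.99 ± 0.26, SD, n = 2). The metallothionein copies CUP1-1 and CUP1-2 are near-identical and their probes cannot be told apart in what they bind. Manganese supply bears on Sod2. Of its 7 genes 1 fell after celastrol and 0 rose, with a median of −0.16, and limma called 0 after heat shock (3 at an unadjusted p under 0.05), with a median of 0.11. PHO84, for a phosphate transporter that also admits manganese, had ratios of −1.12 and −0.95 after celastrol, against 0.73 and 0.36 after heat shock. Its fall after celastrol lost the call with arrays centred on all probes (−0.89; limma adjusted p = 0.0523).

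Catalases and cytochrome c peroxidase hold heme. Of 8 heme synthesis genes tested limma called 0 in either treatment (0 after celastrol and 2 after heat shock at an unadjusted p under 0.05), with medians of −0.066 after celastrol and −0.054 after heat shock. HEM1, for the first enzyme of the pathway, was at −0.41 ± 0.38 and −0.58 ± 0.37 (SD, n = 2 each), lowest of the list in both. HEM14 was the highest of the list after heat shock, at 0.67 ± 0.36, and was at 0.084 ± 0.39 after celastrol (SD, n = 2 each). Cytochrome c, its assembly and use, and the proteases that mature Ccp1 made up 8 genes. After celastrol 2 of the 8 rose and 0 fell, with a median of 0.50. Those were AFG3 (0.93 ± 0.0041) and YTA12 (0.84 ± 0.13; SD, n = 2 each), the subunits of the m-AAA protease of the mitochondrial inner membrane, which acts on the Ccp1 precursor. After heat shock 2 of the 8 rose and 0 fell, with a median of 0.86. Those were PCP1 (0.97 ± 0.32), for the rhomboid protease that makes the last cut in Ccp1, and CYB2 (0.89 ± 0.043; SD, n = 2 each), for a lactate dehydrogenase that passes electrons to cytochrome c. AFG3 had ratios of 0.086 and −0.044 after heat shock, and PCP1 had ratios of 0.70 and 0.89 after celastrol.

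**Figure D5:**
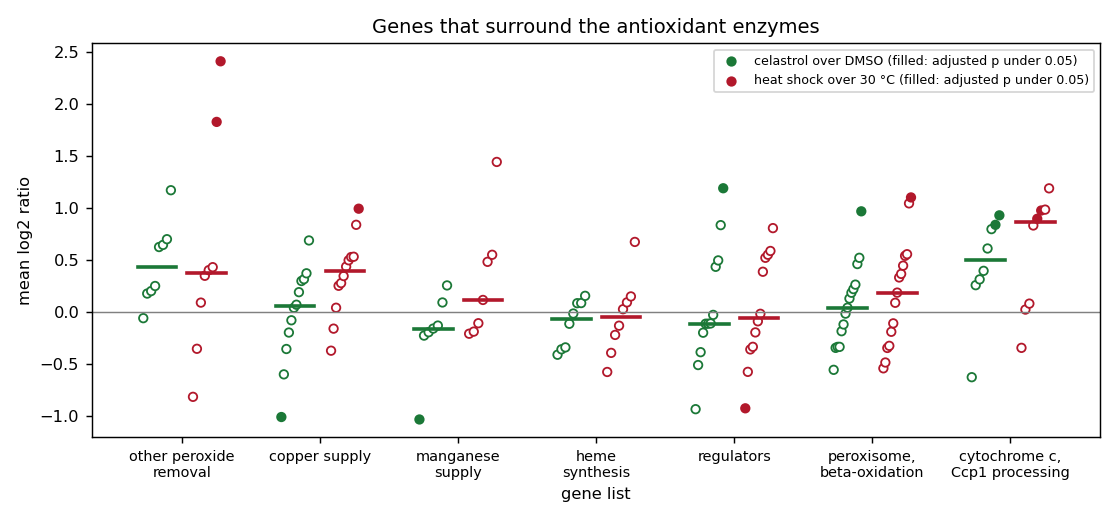
Mean log2 ratios of 2 arrays (vertical axis) of the genes in 7 lists (horizontal axis), with celastrol in green at the left and heat shock in red at the right. Bars are list medians and filled symbols are genes with a limma adjusted p under 0.05. The highest value is TSA2 after heat shock, at 2.41.

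Regulators of these enzymes and of the oxidative stress response numbered 12. YAP1, for the main peroxide-responsive transcription factor, rose after celastrol, with ratios of 1.01 and 1.36, against 0.52 and 0.51 after heat shock. It was the 1 gene of the 12 that was called after celastrol (limma adjusted p = 0.0280), and the list median was −0.11. After heat shock 1 of the 12 fell and 0 rose, with a median of −0.055. It was OAF1, for an oleate-responsive activator of peroxisomal genes (−0.93 ± 0.19, SD, n = 2). The peroxisomal list, the company of CTA1, had 15 genes tested. After celastrol PXA1, for a subunit of the fatty acid importer, rose (0.97 ± 0.12, SD, n = 2), the 1 call among the 15, with a list median of 0.039. After heat shock CAT2, for carnitine acetyltransferase, rose (1.10 ± 0.35, SD, n = 2), again the 1 call among the 15, with a list median of 0.18. No gene of these lists was called in the same direction in both treatments by limma. With 2 arrays per treatment, a missing call does not mean that a gene kept its level. PCP1, called after heat shock, was at 0.79 ± 0.13 after celastrol (SD, n = 2, limma adjusted p = 0.0671). HSF1 was at 0.83 ± 0.41 and 0.80 ± 0.040 (SD, n = 2 each), called in neither (limma adjusted p = 0.0684 and 0.0702). PHO84 and PXA1, called after celastrol, lay on the other side of 0 after heat shock. Whether the calls differ between treatments was tested by the difference, which limma called for TSA2 alone in the 7 lists.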

How the data were processed

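Per the labels and the series text, 4 arrays with 2 colours each were hybridised. The authors averaged duplicate values on a chip and set them relative to the chip's median signal. The deposited table holds 1 value per probe and array, read here as log2 ratios of treated over control. On heat shock replicate 1, 301 pairs of values differed by exactly the log2 of 6 ratios of small whole numbers (within 2e-09), and 0 by their natural log or log10. The sources used here do not give the array software, background correction or spot filters, and intensities were not analysed here, so no filter on dim probes could be made. The number of arrays limits the precision.

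Of 6415 probes, 5619 name 1 gene, 76 several and 720 none. All 5619 identifiers matched the RefSeq table of assembly R64, and 0 symbols changed. No build is named for the array, so no coordinates are given. Probes of a gene were averaged (137 genes had more than 1), exact zeros were taken as missing, and 74 genes missing on an array were left out. The model was fitted in R 4.3.3 by limma 3.58.1 (lmFit, eBayes; 1 mean per treatment, 2 residual and 3.12 prior degrees of freedom), tested on simulated data, and adjusted by Benjamini-Hochberg over 5403 genes. Tables were made in Python 3.11.15.

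The members and the 7 lists were chosen with earlier results of these data known. The text names all members, the called genes of each list (at most 4 per comparison, otherwise the 2 with the largest value, of which some are printed) and the 3 nearest genes of each member. HSF1 was named outside this rule, for its like ratios in both treatments. Alternatives covered scaling, zeros, missing values, weights, the prior, the test, the spread and left-out arrays. Same-numbered arrays deviated in opposite ways (r = −0.31 across genes), so replicate numbers were not taken to pair the arrays.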

Additional observations from a re-analysis of the deposited data

Results flagged for a closer look

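In a number of genes the treatments gave ratios on opposite sides of 0, or a called difference. TSA2 had the 1 difference among them that limma called, −2.23 (celastrol minus heat shock). For the others all arrays of one treatment lay on one side of 0 and all arrays of the other on the opposite side, and limma did not call the difference. The share of all genes that meet this rule was not counted, and arrays of the treatments did not overlap for 47.0% of all genes. Apart from PHO84, which fell, and PXA1, which rose, both after celastrol, none of the flagged genes other than TSA2 was called in either treatment by limma. Among the members these were SOD2, with a difference of −0.52, and CCP1, with −1.57 (−0.36 without heat shock replicate 1). On celastrol replicate 1 they were at −0.00089 and −0.0052, and centring that array on its median of −0.119 would put both above 0. Among the genes of the lists, differences were −0.52 and −0.73 for the near-identical metallothionein copies CUP1-1 and CUP1-2, −1.58 for PHO84, −1.64 for the manganese transporter gene SMF1, −1.48 for HAP4, for the activator subunit of the Hap complex, and −1.39 for SPS19, for a peroxisomal reductase. Differences were positive for PXA1 (1.29), for MDH3, the peroxisomal malate dehydrogenase gene (0.76), and for the heme synthesis gene HEM4 (0.31). On celastrol replicate 2 CUP1-1 was at −0.017 and SPS19 at −0.14. Centring that array on its median of −0.171 would put both above 0. SMF1, like CCP1, was far higher on heat shock replicate 1, at 2.30, than on replicate 2, at 0.59.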

How the results depend on the processing

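Of 18 results for the 6 genes (3 comparisons each), 7 kept their direction and their side of the threshold under every setting run. The array weights were 1.42 for both celastrol arrays and 0.703 for both heat shock arrays, so they weighted treatments rather than single arrays. CTT1 after heat shock lost its call with array weights, with its arrays fitted alone, with zeros kept and against a 1.5-fold change (0.98 in each; limma adjusted p = 0.0799, 0.143, 0.0541 and 0.523) and with arrays centred on the genes tested, a setting chosen after seeing the data (0.98; 0.0510). CCS1 after celastrol gained one with array weights or fitted alone (1.17), with quantile normalization (1.21) and with arrays centred on all probes (1.32) or on the genes tested (1.29). SOD1 after celastrol gained one with array weights or fitted alone (0.73) and with quantile normalization (0.82). Centring on all probes would shift celastrol means by 0.145, heat shock means by 0.041 and their difference by 0.104. CTT1 after celastrol turned to 0.142 and 0.113 with the centrings and 0.076 with quantile normalization, and CCP1 to 0.038 and 0.0097 with the centrings.

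With 1 array left out, CTT1 ranged between 0.71 and 1.25 after heat shock and between −0.13 and 0.13 after celastrol. Likewise CCS1 ranged between 0.99 and 1.35 and SOD1 between 0.46 and 0.997 after celastrol, and CCS1 between −0.56 and 0.18, SOD1 between −0.43 and 0.12 and CCP1 between 0.25 and 2.68 after heat shock. Differences ranged between 0.99 and 1.73 for CCS1, −2.79 and −0.36 for CCP1 and −0.020 and 0.11 for CTA1. In such fits a lone array is assumed to vary like the arrays of the other treatment.

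Of all genes, 353 were called after celastrol, 490 after heat shock and 60 for the difference. These counts were 1243, 216 and 80 with array weights, 1135, 989 and 164 with quantile normalization and 60, 69 and 31 against a 1.5-fold change. Fitted alone, the celastrol arrays gave 1522 and the heat shock arrays 0 by limma, with 1154 at an unadjusted p under 0.05. With 1 array left out the counts ranged from 0 to 1522 after celastrol, 0 to 1582 after heat shock and 0 to 575 for the difference. With the replicate block, limma called 0 differences (524 at an unadjusted p under 0.05), and with the crossed block, added after seeing the data, it called 50. Neither block changed a call of the 6 genes, but TSA2 lost its called difference (limma adjusted p = 0.101 and 0.0617). Of 280 counts of called list genes under other settings, 99 moved by over 1.5 times or moved from or to 0. Of the 6 celastrol calls in the lists 4 were left with arrays centred on all probes, where ATX1 and PHO84 lost theirs, and of the 7 heat shock calls 2 with array weights.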
